A study of Mus musculus with 7 samples.

Results

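Phosphodiesterases are the enzymes that hydrolyse the second messengers cAMP and cGMP, and the 10 phosphodiesterase genes described here were taken by their listed symbols (Pde1b, Pde2a, Pde3b, Pde4a, Pde4b, Pde4d, Pde5a, Pde7a, Pde8a and Pde12) from the 57180 genes of the deposited count table. Each symbol matched 1 gene, and all 10 passed the filter on low counts. They were measured in regulatory T cells (Treg cells, the FOXP3-dependent CD4 T cells that hold immune responses in check) sorted from B16-F0 tumours, a transplantable mouse melanoma. The first group was 3 libraries of FOXP3-high Treg cells and the other was 4 libraries of FOXP3-low Treg cells. All came from mice described as Foxp3-Cre-YFP, a reporter that places Cre recombinase and YFP under the Foxp3 gene, so that the cells of both groups share it, although the genotype label of every sample reads WT. The sort gates, the age and sex of the mice, and whether replicates came from separate mice are not given in the labels, so the p-values rest on the spread among these libraries, part of which may be technical.

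Cyclic AMP is made by adenylyl cyclases when receptors coupled to the G protein Gs are engaged, acts through protein kinase A and the EPAC exchange factors, and is removed by phosphodiesterases. In T cells it dampens signalling from the T cell receptor. Treg cells are known for a high cAMP content and for responding to extracellular adenosine. The phosphodiesterase families differ in substrate and control: PDE1, PDE2 and PDE3 hydrolyse both cAMP and cGMP, PDE4, PDE7 and PDE8 are specific for cAMP, and PDE5 is specific for cGMP. Pde12 shares the name only, since its product cleaves 2′,5′-linked oligoadenylate and trims RNA tails in mitochondria and is no cyclic nucleotide phosphodiesterase.

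The FOXP3-high libraries held 9048771 to 11202260 counts and the FOXP3-low libraries 12177761 to 14546999. The 10 genes took 4796 to 5522 of these in FOXP3-high and 4222 to 5366 in FOXP3-low. Foxp3 itself stood at 698 ± 95.4 CPM in FOXP3-high (SD, n = 3) and 357 ± 44.3 CPM in FOXP3-low (SD, n = 4), which follows the labels. CPM are counts scaled to a common library size by edgeR's TMM factors. A log2 fold change is given as FOXP3-high over FOXP3-low, with its standard error. The 17 genes of T cell identity summed to 5034 to 5731 CPM in FOXP3-high and 3829.6 to 4249 CPM in FOXP3-low, and 15 of them were called higher. All 9 Treg markers, Foxp3 among them, were detected in both groups. They summed to 3840.1 to 4699 CPM in FOXP3-high and 2668 to 3051 CPM in FOXP3-low. Called higher were 6 and called lower 1 (Capg), against 21.8% and 24.6% of all genes tested, while Il2ra and Ikzf4 did not pass. Markers of other cells moved with the groups too. Of 15 macrophage and monocyte markers 14 were lower in FOXP3-high, Ccr2 being the exception, with sums of 733 to 760.3 CPM in FOXP3-high and 2396 to 2933 CPM in FOXP3-low. None of the 15 was at 0 throughout FOXP3-high, where Itgam averaged 25.1 CPM in FOXP3-high and 543 CPM in FOXP3-low. Neutrophil markers (7 of 8 lower) summed to 63.3 to 122 CPM in FOXP3-high and 890.2 to 1158 CPM in FOXP3-low. Dendritic cell markers (9 of 9 lower) summed to 90.2 to 159 CPM in FOXP3-high and 1256 to 1959 CPM in FOXP3-low. Of 5 tested B and plasma cell markers 3 were lower, with sums of 92.0 to 123 CPM in FOXP3-high and 397 to 527 CPM in FOXP3-low. All 8 melanoma markers were higher (summed 3221 to 4427 CPM in FOXP3-high and 1305 to 2356 CPM in FOXP3-low), and all 10 cell cycle genes were lower. The part of these cells in the results below was not tested, and in bulk RNA fewer cells of a type and less RNA per cell cannot be told apart.

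Promoter sequences of 8 of the 10 genes were found in the RefSeq table of build GRCm38.p6, as 19 windows running from 250 bases before an annotated start site to 50 after it. Pde3b and Pde7a had no entry. Windows are shown for Pde2a, the gene with the largest change, for Pde4b and Pde4d, paralogs that moved in opposite directions, and for the Pde1b window that holds a forkhead match. Capitals mark matches, on either strand, to the cAMP response element TGACGTCA, to its shorter core TGACG (contained in the former), or to the forkhead motif TGTTTAC.
Pde2a, chr7:101421441-101421740, plus strand: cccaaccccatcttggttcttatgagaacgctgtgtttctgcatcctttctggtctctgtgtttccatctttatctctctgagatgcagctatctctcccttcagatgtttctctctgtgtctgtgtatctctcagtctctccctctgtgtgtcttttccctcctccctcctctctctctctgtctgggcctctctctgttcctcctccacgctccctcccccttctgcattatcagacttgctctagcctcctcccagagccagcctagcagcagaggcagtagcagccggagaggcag
Pde1b, chr15:103506876-103507175, plus strand: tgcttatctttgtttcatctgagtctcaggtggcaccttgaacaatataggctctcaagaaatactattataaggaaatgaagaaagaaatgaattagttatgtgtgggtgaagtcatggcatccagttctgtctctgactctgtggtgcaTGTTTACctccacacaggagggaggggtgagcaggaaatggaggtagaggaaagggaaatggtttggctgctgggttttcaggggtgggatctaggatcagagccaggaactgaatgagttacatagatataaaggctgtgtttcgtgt
Pde4b, chr4:102421305-102421604, plus strand: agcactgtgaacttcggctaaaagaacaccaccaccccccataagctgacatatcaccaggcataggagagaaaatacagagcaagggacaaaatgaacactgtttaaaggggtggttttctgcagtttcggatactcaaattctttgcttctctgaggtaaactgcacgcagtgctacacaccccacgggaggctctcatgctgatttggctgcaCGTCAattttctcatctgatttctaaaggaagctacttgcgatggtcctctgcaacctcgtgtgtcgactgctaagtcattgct
Pde4d, chr13:108653927-108654226, plus strand: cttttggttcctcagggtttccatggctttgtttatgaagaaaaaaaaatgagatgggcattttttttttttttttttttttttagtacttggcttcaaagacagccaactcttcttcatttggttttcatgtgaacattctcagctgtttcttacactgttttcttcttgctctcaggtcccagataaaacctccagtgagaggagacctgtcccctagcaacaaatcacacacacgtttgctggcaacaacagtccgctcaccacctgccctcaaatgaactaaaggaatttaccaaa
No window of the 19 held TGACGTCA, which 1.79% of all 32851 windows held. The core TGACG lay in 4 of the 19 windows, against 20.8% of all windows, and the forkhead motif in 1 of the 19, against 3.65% of all. In the Pde4b window shown, the core lies on the opposite strand and begins 34 bases before the start site, and in the Pde1b window the forkhead match begins 99 bases before it. The Pde4b window shown is the 1 of its 4 windows with a match. The Pde2a and Pde4d windows shown held none of these letters, but another of the 5 Pde2a windows (chr7:101450270-101450569, not shown) held the core on the opposite strand. A match is a string of letters and not a bound site, and which start sites were used cannot be read from counts per gene.

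Of the 10 genes, 5 were higher in FOXP3-high (Pde2a, Pde4d, Pde3b, Pde1b and Pde7a), 1 was lower (Pde4b), and 4 did not pass (Pde8a, Pde5a, Pde4a and Pde12). The test was edgeR's quasi-likelihood test with Benjamini-Hochberg adjustment over all 15838 genes tested and a threshold of 0.05. Of all genes tested, 21.8% were called higher, 24.6% were called lower and 46.5% were called in either direction, so that a call is common in this comparison and 6 calls of 10 genes are read only one by one. The median log2 fold change was 0.48 over the 10 genes and 0.01 over all genes tested. The groups did not overlap in 6 of the 10, against 50.7% of all genes tested. These were the same 5 genes with FOXP3-high above, against 23.9% of all, and Pde4b with FOXP3-low above, against 26.8%. When libraries were instead scaled to the summed counts of the 17 T cell identity genes, the median log2 fold change of all genes moved by -0.38. Of all genes 1093 were then higher and 7160 lower, against 3459 higher and 3898 lower with TMM. Of the 10, Pde2a and Pde4d were then higher, and Pde4b and Pde12 lower.

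**Figure D1:**
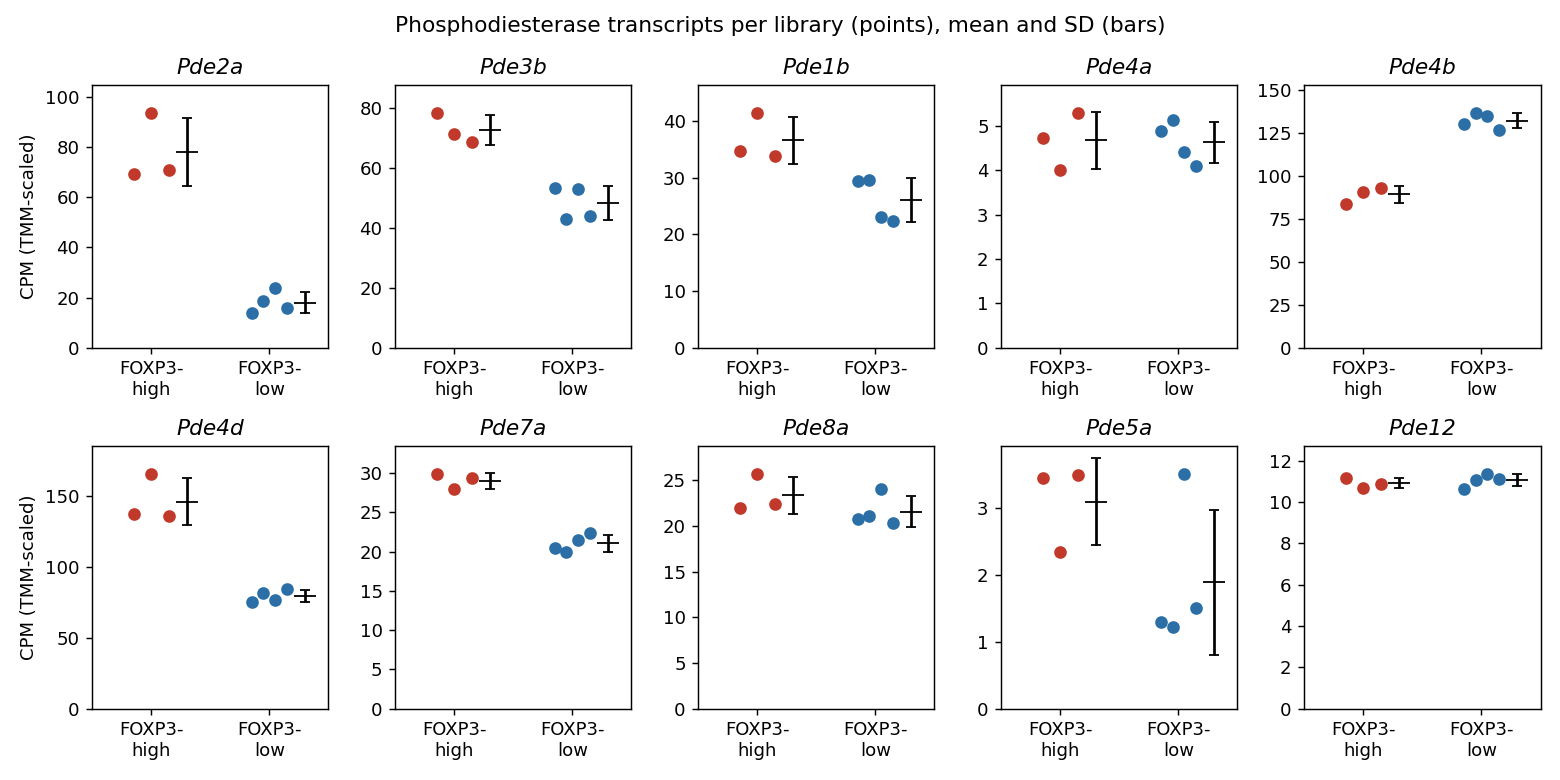
CPM (TMM-scaled) of each of the 10 genes in the 3 FOXP3-high libraries (red) and the 4 FOXP3-low libraries (blue), with 1 point per library and the mean and SD beside the points. Every panel starts at 0, and Pde2a, Pde3b, Pde1b, Pde4d and Pde7a lie higher and Pde4b lower in all FOXP3-high libraries than in any FOXP3-low library.

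Pde2a encodes a phosphodiesterase of both nucleotides whose hydrolysis of cAMP is stimulated by cGMP. It stood at 69.4, 93.5 and 70.7 CPM in FOXP3-high replicates 1 to 3, against 14.1, 18.5, 23.8 and 15.7 CPM in FOXP3-low replicates 1 to 4. All FOXP3-high libraries were far above the FOXP3-low ones, with replicate 2 the highest. The mean was 77.9 ± 13.6 CPM in FOXP3-high (SD, n = 3) and 18.0 ± 4.28 CPM in FOXP3-low (SD, n = 4), a 4.3-fold difference (log2 fold change 2.10 ± 0.18, edgeR adjusted p = 1.12e-05). Only 0.253% of all genes tested had a larger log2 fold change. Pde2a (ENSMUSG00000110195) spans chromosome 7 from 101070898 to 101162034 on the plus strand (GRCm39).

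The gene model Gm45837 (ENSMUSG00000030653), named here because it overlaps Pde2a on the same strand, starts 10805 bases upstream at 101060093, inside the end of Arap1, and ends at 101162026. Pde2a and Gm45837 held 807 and 806 counts, 840 and 842 counts, and 749 and 751 counts in FOXP3-high replicates 1 to 3. In FOXP3-low replicates 1 to 4 they held 173 and 193, 228 and 254, 340 and 356, and 188 and 197 counts. Paired counts thus differed by at most 2 in FOXP3-high and by 9 to 26 in FOXP3-low. The square root of each pair's summed count, the counting noise of a difference between independent counts, was 38.7 to 41.0 in FOXP3-high and 19.1 to 26.4 in FOXP3-low. The counts of the 2 models were therefore closer than independent counts would be in every FOXP3-high library, and the sources used here do not give how reads shared by genes were counted. Gm45837 changed alike (log2 fold change 2.0 ± 0.17, edgeR adjusted p = 1.18e-05). With the counts of both added into 1 gene the value was 2.05 (edgeR adjusted p = 1.03e-05). That value had to lie near those of the 2 models, whose reads may be the same ones, and is no separate check. Which of the models the reads belong to cannot be told from these counts, and the difference between groups has about the same size for either.

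**Figure D2:**
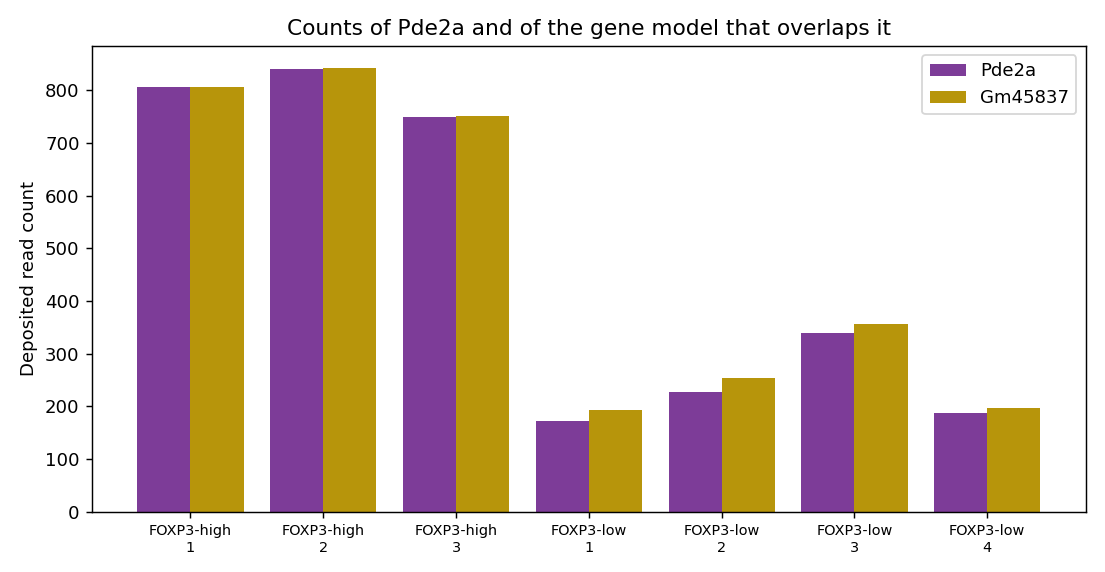
Deposited read counts (not scaled for library size) of Pde2a (purple) and Gm45837 (yellow) in each library, FOXP3-high on the left and FOXP3-low on the right. The bars of a pair are nearly equal, at 749 to 842 counts in FOXP3-high and 173 to 356 counts in FOXP3-low.

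Pde3b encodes the phosphodiesterase that cGMP inhibits, which acts below insulin and cytokine receptors, and it is known as a gene that FOXP3 represses in mouse Treg cells. It was at 78.2, 71.2 and 68.6 CPM in FOXP3-high, against 53.2, 42.8, 52.9 and 43.9 CPM in FOXP3-low. The lowest FOXP3-high library stood above the highest FOXP3-low library. The mean was 72.7 ± 4.98 CPM in FOXP3-high and 48.2 ± 5.63 CPM in FOXP3-low, 1.51-fold higher (log2 fold change 0.59 ± 0.0968, edgeR adjusted p = 8.02e-04). Pde3b (ENSMUSG00000030671) lies on chromosome 7 from 114014516 to 114138486, plus strand. Scaling to the T cell identity genes ended the call (log2 fold change 0.21, edgeR adjusted p = 0.21).

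Pde1b encodes a phosphodiesterase activated by calcium and calmodulin. It was at 34.7, 41.4 and 33.9 CPM in FOXP3-high, against 29.4, 29.6, 23.1 and 22.4 CPM in FOXP3-low. The groups did not overlap, and the gap between them was close to the SD of each. The log2 fold change was 0.49 ± 0.13 (edgeR adjusted p = 0.0105), and scaling to the T cell identity genes gave 0.10 (edgeR adjusted p = 0.50). Pde1b (ENSMUSG00000022489) lies on chromosome 15 from 103411461 to 103438479, plus strand.

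The PDE4 genes encode the cAMP-specific enzymes that rolipram inhibits and that account for much of the cAMP hydrolysis in leukocytes. Pde4d was at 137, 166 and 136 CPM in FOXP3-high, against 75.2, 82.0, 76.6 and 84.5 CPM in FOXP3-low. Every FOXP3-high library stood well above every FOXP3-low library. The log2 fold change was 0.88 ± 0.0807, a 1.84-fold higher level (edgeR adjusted p = 2.02e-05). Pde4d (ENSMUSG00000021699) covers chromosome 13 from 108586482 to 110088008, plus strand, and no overlapping gene held 10% or more of its counts.

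Pde4b, the PDE4 gene that inflammatory stimuli induce in monocytes and that the T cell receptor recruits in T cells, moved the other way. It was at 83.9, 91.1 and 93.2 CPM in FOXP3-high, against 130.3, 137, 135 and 127 CPM in FOXP3-low. The groups were tight and wide apart. The mean was 89.4 ± 4.88 CPM in FOXP3-high (SD, n = 3) and 132 ± 4.36 CPM in FOXP3-low (SD, n = 4), with a log2 fold change of -0.57 ± 0.0572 (edgeR adjusted p = 3.76e-05). Pde4b (ENSMUSG00000028525) lies on chromosome 4 from 101944740 to 102464456, plus strand. The macrophage, neutrophil and dendritic cell markers were lower in FOXP3-high too (median log2 fold changes -4.16, -3.86 and -2.87), and their part in the Pde4b values was not tested.

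The third PDE4 gene, Pde4a, was low in both groups. It was at 4.73, 4.01 and 5.29 CPM in FOXP3-high, against 4.88, 5.12, 4.42 and 4.10 CPM in FOXP3-low, and the groups overlapped fully. The log2 fold change of 0.02 ± 0.19 had a 95% interval from -0.40 to 0.43 (edgeR adjusted p = 0.95), so changes within that interval remain possible. Pde4a (ENSMUSG00000032177) lies on chromosome 9 from 21077010 to 21122923, plus strand.

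Pde7a and Pde8a encode cAMP-specific enzymes that rolipram does not inhibit, of which PDE8A has the higher affinity for cAMP and a part in T cell adhesion and migration. Pde7a was at 29.9, 27.9 and 29.4 CPM in FOXP3-high, against 20.5, 20.01, 21.4 and 22.4 CPM in FOXP3-low. It was higher in every FOXP3-high library, by a log2 fold change of 0.46 ± 0.0774 (edgeR adjusted p = 9.08e-04), and by 0.08 with T cell identity scaling (edgeR adjusted p = 0.53). Pde8a was at 21.9, 25.7 and 22.5 CPM in FOXP3-high, against 20.8, 21.1, 24.0 and 20.3 CPM in FOXP3-low, and the groups overlapped. Its log2 fold change of 0.11 ± 0.0964 did not pass (95% interval -0.10 to 0.33, edgeR adjusted p = 0.38). Scaled to the T cell identity genes it was -0.28 (edgeR adjusted p = 0.066), or 0.0935 above the median of all genes under that scaling. Pde7a (ENSMUSG00000069094) lies on chromosome 3 from 19277272 to 19365468, minus strand, and Pde8a (ENSMUSG00000025584) on chromosome 7 from 80863344 to 80984281, plus strand.

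Pde5a, the cGMP-specific enzyme that sildenafil inhibits and that is best known in vascular smooth muscle, was the least abundant of the 10. It held 40, 21 and 37 counts in FOXP3-high (3.44, 2.34 and 3.49 CPM), against 16, 15, 50 and 18 counts in FOXP3-low (1.30, 1.22, 3.50 and 1.51 CPM). FOXP3-low replicate 3 stood at the level of the FOXP3-high libraries, apart from the other FOXP3-low ones. Over all libraries the log2 fold change was 0.70 ± 0.40 (95% interval -0.19 to 1.60, edgeR adjusted p = 0.18). Without FOXP3-low replicate 3 it was 1.19 and passed (edgeR adjusted p = 0.011). The sum of 7 endothelial markers was 297 CPM in FOXP3-low replicate 3 against 95.3 to 115 CPM in the other FOXP3-low libraries, and that of 7 fibroblast and pericyte markers was 638 CPM against 54.7 to 96.4 CPM. In FOXP3-high replicates 1 to 3 the endothelial sum was 195, 72.0 and 334 CPM, and the fibroblast and pericyte sum was 209, 26.3 and 493 CPM. The part of these cells in the Pde5a values was not tested. Pde5a (ENSMUSG00000053965) lies on chromosome 3 from 122522596 to 122653021, plus strand.

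Pde12, the 2′,5′-phosphodiesterase, hardly varied. It was at 11.2, 10.7 and 10.9 CPM in FOXP3-high, against 10.6, 11.1, 11.4 and 11.1 CPM in FOXP3-low, and the groups overlapped. The log2 fold change was -0.02 ± 0.11 (95% interval -0.26 to 0.23, edgeR adjusted p = 0.91). Scaled to the T cell identity genes it was -0.40 and passed as lower (edgeR adjusted p = 0.025), although it lay only 0.0295 below the median of all genes under that scaling. Pde12 (ENSMUSG00000043702) lies on chromosome 14 from 26381113 to 26391038, minus strand, and the 3′ part of the gene overlaps Arf4 on the opposite strand, which held 519% as many counts, so that reads of the pair are not separated with certainty.

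**Figure D3:**
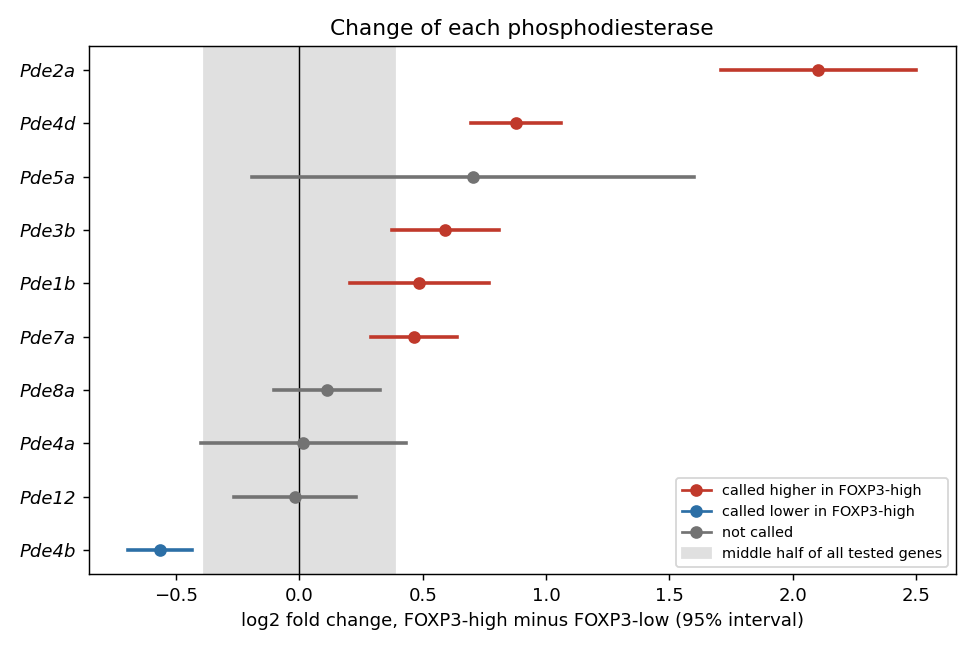
Log2 fold change of each gene (points, FOXP3-high minus FOXP3-low) with its 95% interval (lines), in red where called higher in FOXP3-high, blue where called lower and grey where not called. The shaded band runs from the 25th to the 75th percentile of all genes tested (-0.39 to 0.39), and Pde2a lies farthest from it at 2.10.

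To compare levels between genes, CPM was divided by the gene length in the authors' table. On this scale (CPM per kb) the order in FOXP3-high began with Pde2a at 12.7 ± 2.21 and Pde4d at 12.2 ± 1.41, whose libraries overlapped. Pde4b (8.47), Pde3b (7.98), Pde1b (6.79) and Pde8a (5.78) followed, each overlapping its neighbour. Pde7a (3.75), Pde12 (1.41), Pde4a (0.611) and Pde5a (0.314) came last and did not overlap their neighbours. In FOXP3-low the order began with Pde4b at 12.5 ± 0.413 CPM per kb, clear of Pde4d at 6.63 ± 0.367. Pde8a (5.34), Pde3b (5.29) and Pde1b (4.84) followed with overlapping libraries, then Pde2a (2.93) and Pde7a (2.72), which also overlapped, and Pde12, Pde4a and Pde5a were last again. The most abundant phosphodiesterase transcript per length was thus Pde4b in FOXP3-low, and Pde2a or Pde4d in FOXP3-high. The place of Pde2a rests on the deposited length of 6149 bases, while the Gm45837 model with nearly equal counts has 4139.

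The 9 cyclic nucleotide phosphodiesterases summed to 55.9, 63.9 and 55.8 CPM per kb in FOXP3-high, against 40.7, 41.6, 42.8 and 39.2 CPM per kb in FOXP3-low. Most of that difference lay in the genes of both nucleotides (Pde1b, Pde2a and Pde3b), and there mostly in Pde2a. These 3 genes summed to 27.4 ± 2.87 CPM per kb in FOXP3-high and 13.1 ± 1.07 in FOXP3-low. The cAMP-specific genes (Pde4a, Pde4b, Pde4d, Pde7a and Pde8a) summed to 30.8 ± 1.90 CPM per kb in FOXP3-high and 27.8 ± 0.659 in FOXP3-low. Within PDE4 the level of the family hardly differed, at 21.3 ± 1.53 CPM per kb in FOXP3-high and 19.8 ± 0.505 in FOXP3-low with overlapping libraries, while its makeup did. The ratio of Pde4b to Pde4d per length was 0.694, 0.624 and 0.780 in FOXP3-high, against 1.97, 1.90, 2.0 and 1.71 in FOXP3-low, so that Pde4d was the more abundant in every FOXP3-high library and Pde4b in every FOXP3-low library. The share of Pde2a in the 9-gene sum was 21.5% ± 1.99 in FOXP3-high and 7.11% ± 1.46 in FOXP3-low, while the shares of Pde3b (13.7% ± 1.57 in FOXP3-high and 12.9% ± 1.35 in FOXP3-low) and Pde1b (11.6% ± 0.395 and 11.8% ± 1.75) were close. The share of Pde4b was 14.5% ± 1.18 and 30.5% ± 0.540 in the same order of groups. The sums are on the TMM scale and would be lower in FOXP3-high with T cell identity scaling, which shifts log2 differences by -0.38 at the median, whereas shares and ratios within a library do not depend on the scaling. These sums and shares are descriptions of genes chosen with earlier results known, and no test was made on them.

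**Figure D4:**
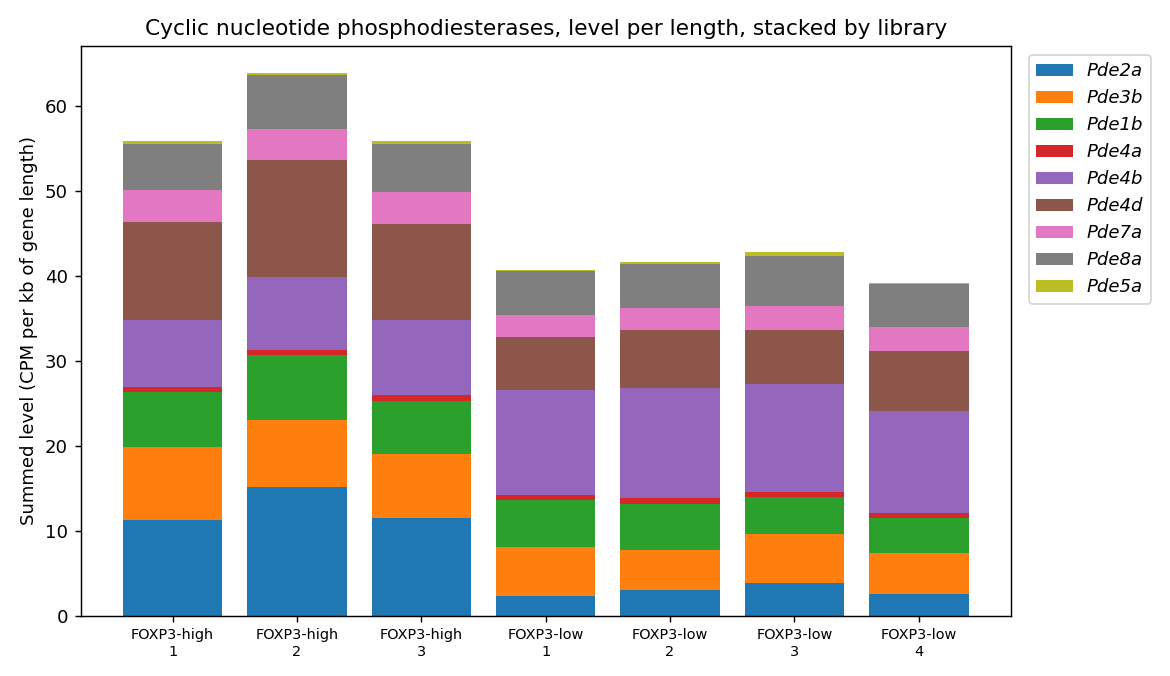
Stacked level per length (CPM per kb) of the 9 cyclic nucleotide phosphodiesterases in each library, FOXP3-high on the left and FOXP3-low on the right, with 1 colour per gene. The stacks reach 55.8 to 63.9 in FOXP3-high and 39.2 to 42.8 in FOXP3-low, with a thicker Pde2a layer at the bottom and a thinner Pde4b layer in FOXP3-high.

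The genes whose pattern was most like that of Pde2a were S1pr1, Myo3b, Cd55, Scml4 and St8sia6. Likeness was the root mean square difference of log2 CPM over the 7 libraries after each gene was centred on its own mean, and it was 0.22 to 0.27 for these 5 of 9693 candidate genes. S1pr1, the receptor by which T cells leave tissue towards sphingosine 1-phosphate, was at 92.5 CPM in FOXP3-high and 23.5 CPM in FOXP3-low on average, and Cd55, a membrane protein that restrains complement, at 42.6 and 10.4 CPM in the same order. For Pde3b the nearest genes were Cdc42ep3, Edrf1, Bcl7b, Ppp1r37 and Xpc, at 0.0706 to 0.0846 log2 units, with log2 fold changes from 0.51 to 0.63. Xpc, which recognises DNA damage in nucleotide excision repair, was at 101 CPM in FOXP3-high and 66.0 CPM in FOXP3-low on average. Cdc42ep3 overlaps Gm17315 on the opposite strand. Likeness over 7 libraries in 2 groups reflects mainly the difference between the groups.

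Other genes with a Pde symbol averaged at most 12.1 CPM in FOXP3-high (Pde11a), above Pde12, Pde4a and Pde5a. In FOXP3-low they averaged at most 8.45 CPM (Pde6d), above Pde4a and Pde5a. Per length, Pde6d was at 3.88 CPM per kb in FOXP3-low, above Pde2a (2.93) and Pde7a (2.72) there. Of these 15 further genes, taken by symbol, 8 passed the filter, of which 1 was higher, 2 were lower and 5 did not pass. A call in either direction fell on 46.5% of all genes tested. Pde11a, of both nucleotides, was at 12.1 ± 1.86 CPM in FOXP3-high and 6.97 ± 1.87 CPM in FOXP3-low (log2 fold change 0.79 ± 0.22, edgeR adjusted p = 0.0149), a call that T cell identity scaling ended (0.42, edgeR adjusted p = 0.18). Pde7b, the cAMP-specific paralog of Pde7a, went the other way from it, at 0.866 ± 0.403 CPM in FOXP3-high and 6.01 ± 2.0 CPM in FOXP3-low (log2 fold change -2.81 ± 0.40). It overlaps Gm17230 on the opposite strand. Pde4c, the fourth PDE4 gene, was at 0.506 ± 0.308 CPM in FOXP3-high and 1.47 ± 0.226 CPM in FOXP3-low. Pde7b and Pde4c passed the filter on low counts only through FOXP3-low, the group where they were higher. Their calls as lower are therefore counted above but given no weight.

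Genes that make or sense cyclic nucleotides were counted from lists, beside 21.8% of all genes tested called higher and 24.6% called lower. Of 10 adenylyl cyclase genes 5 were tested, 2 higher and 1 lower. Adcy7, the main isoform of leukocytes, was at 165 ± 9.52 CPM in FOXP3-high and 124 ± 6.05 CPM in FOXP3-low (log2 fold change 0.41 ± 0.0592, edgeR adjusted p = 3.62e-04), and Adcy3, which overlaps Cenpo on the opposite strand, at 19.7 and 13.9 CPM. Both calls ended with T cell identity scaling (edgeR adjusted p = 0.63 and 0.34). Adcy9 was lower, at 1.69 ± 0.594 CPM in FOXP3-high and 3.66 ± 0.637 CPM in FOXP3-low, and overlaps Gm6142 on the same strand. None of the 4 tested guanylyl cyclase genes was called, and the subunits of the nitric oxide receptor, Gucy1b1 and Gucy1a1, stood at 2.21 ± 1.30 and 1.85 ± 2.01 CPM in FOXP3-high and at 2.89 ± 1.58 and 1.38 ± 1.33 CPM in FOXP3-low. The cGMP-dependent kinase Prkg1 was at 3.32 ± 1.20 CPM in FOXP3-high and 1.75 ± 1.22 CPM in FOXP3-low without passing (edgeR adjusted p = 0.15), and Prkg2 was below the filter.

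Of 10 tested Gs-coupled receptors and Gs subunits, 6 were higher and 3 lower, against 21.8% and 24.6% of all genes tested. With T cell identity scaling 2 were higher and 3 lower. Of those higher with TMM, Gnal overlaps Chmp1b on the same strand, which held 2831% as many counts. Ptger4 overlaps Ttc33, and Ptger2 overlaps Gm49364 and Gm17173, all on the opposite strand. Gnas, called lower with TMM, lost its call with upper quartile factors (edgeR adjusted p = 0.25) and total counts (edgeR adjusted p = 0.37). Vipr1, a receptor for vasoactive intestinal peptide, was at 18.0 ± 2.05 CPM in FOXP3-high and 5.19 ± 1.15 CPM in FOXP3-low (log2 fold change 1.79 ± 0.19, edgeR adjusted p = 4.81e-05). Adora2a, the main adenosine receptor of T cells, was at 50.4 ± 7.40 CPM in FOXP3-high and 31.4 ± 2.93 CPM in FOXP3-low (0.68 ± 0.11, edgeR adjusted p = 8.21e-04). Both of these receptors stayed called with T cell identity scaling. Adora2b, a further adenosine receptor, was near 0 in FOXP3-high, at 0.192 ± 0.161 CPM, and at 1.97 ± 0.698 CPM in FOXP3-low. Adora2b passed the filter on low counts only through FOXP3-low, so its call as lower is counted but given no weight. The acid-sensing receptor Gpr65, which overlaps Gm47566 on the opposite strand, was at 25.4 and 36.5 CPM in FOXP3-high and FOXP3-low. Both tested inhibitory subunits were lower, Gnai2 at 890.4 ± 43.9 CPM in FOXP3-high and 1095 ± 35.6 CPM in FOXP3-low and Gnai3 at 63.3 ± 2.78 and 73.4 ± 3.30 CPM; the call of Gnai3 ended with upper quartile factors (edgeR adjusted p = 0.0552) and under total-count scaling (edgeR adjusted p = 0.0791).

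Effectors of cAMP moved in both directions. Of 3 tested genes of EPAC and cAMP efflux 2 were higher, both of them EPAC genes, against 21.8% of all genes tested. Rapgef3 was at 16.2 ± 2.15 CPM in FOXP3-high and 5.16 ± 1.84 CPM in FOXP3-low (log2 fold change 1.64 ± 0.24, edgeR adjusted p = 3.98e-04). Rapgef4 was at 21.9 ± 5.81 and 11.3 ± 1.80 CPM in the same order. The efflux gene Abcc4, at 19.6 ± 3.36 and 19.0 ± 2.16 CPM, did not pass (edgeR adjusted p = 0.81). Rapgef4 overlaps Rapgef4os2 on the opposite strand. Of 8 tested genes of protein kinase A 1 was higher and 3 lower, a share called near the 46.5% of all genes, and with T cell identity scaling 1 was higher and 5 lower. The catalytic subunit Prkacb was at 107 ± 4.65 CPM in FOXP3-high and 72.4 ± 1.29 CPM in FOXP3-low (log2 fold change 0.56 ± 0.0544, edgeR adjusted p = 2.95e-05). The inhibitor peptide Pkib was at 1.60 ± 0.343 CPM in FOXP3-high and 14.2 ± 2.99 CPM in FOXP3-low (-3.13 ± 0.24, edgeR adjusted p = 6.27e-06). Macrophage, neutrophil and dendritic cell markers were lower to a like degree, with median log2 fold changes of -4.16, -3.86 and -2.87. Melanoma markers were higher (1.11), and no endothelial, fibroblast or pericyte marker was called. The part of any of these cells in the low FOXP3-high values of Pkib, Adora2b and Pde7b was not tested. The inhibitor Pkig was at 5.40 ± 2.20 CPM in FOXP3-high and 11.4 ± 1.54 CPM in FOXP3-low. The subunit Prkaca, at 27.2 ± 1.35 CPM in FOXP3-high and 31.4 ± 1.26 CPM in FOXP3-low, passed barely (edgeR adjusted p = 0.0473), lost its call with upper quartile factors (edgeR adjusted p = 0.12) and total counts (edgeR adjusted p = 0.18), and overlaps SMIM46 on the same strand.

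A-kinase anchors hold protein kinase A and often phosphodiesterases at sites in the cell. They gave 6 higher and 1 lower of 11 tested, against 21.8% and 24.6% of all genes tested. With T cell identity scaling 2 were higher and 1 lower. Akap9 was at 624 ± 38.4 CPM in FOXP3-high and 437 ± 6.54 CPM in FOXP3-low, Akap8 at 475 ± 32.2 and 322 ± 13.0, Akap8l at 254 ± 21.6 and 139 ± 13.4, and Akap13 at 1069 ± 79.5 and 807 ± 30.7 CPM in the same order of groups (edgeR adjusted p at most 2.70e-04). Akap8 and Akap8l kept their calls with T cell identity scaling, and Akap9 (edgeR adjusted p = 0.0606) and Akap13 (edgeR adjusted p = 0.75) did not. Akap9 overlaps Cyp51 on the opposite strand.

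Of 8 CREB factors and coactivators, the transcription machinery that protein kinase A activates, 6 were higher and 1 lower. The shares of all genes tested were 21.8% higher and 24.6% lower. With T cell identity scaling 3 of the 8 were higher and 3 lower. Crem, which also encodes the cAMP-inducible repressor ICER, was at 141 ± 6.52 CPM in FOXP3-high and 77.1 ± 4.92 CPM in FOXP3-low (log2 fold change 0.87 ± 0.0645, edgeR adjusted p = 5.14e-06). The coactivators Crebbp (log2 fold change 0.68 ± 0.0525), Crtc3 (0.69 ± 0.0910) and Ep300 (0.45 ± 0.0582) were higher as well, and of these Ep300 lost its call with T cell identity scaling (edgeR adjusted p = 0.44).

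Genes that cAMP is known to induce in many cells differed in direction. Of 8, 1 was higher, 3 were lower and 4 did not pass, against 21.8% of all genes tested called higher and 24.6% called lower. With T cell identity scaling 1 was higher and 7 lower, and with upper quartile factors or total counts 3 were higher and 3 lower. Ppargc1a, a coactivator of mitochondrial genes, was at 29.4 ± 4.16 CPM in FOXP3-high and 13.3 ± 4.13 CPM in FOXP3-low (log2 fold change 1.15 ± 0.22, edgeR adjusted p = 0.0020). Melanoma markers were higher in FOXP3-high too (median log2 fold change 1.11), and their part in the Ppargc1a values was not tested. Nr4a2 was at 97.2 ± 5.79 and 157 ± 12.7 CPM, Fos at 164 ± 12.5 and 259.9 ± 20.9 CPM, and Dusp1 at 165 ± 27.4 and 229.8 ± 8.85 CPM in FOXP3-high and FOXP3-low (edgeR adjusted p at most 0.00247). These 3 are also induced by antigen receptor and stress signals, and Dusp1 overlaps Ergic1 on the opposite strand.

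Of the genes around 2′,5′-oligoadenylate, the substrate of the Pde12 product, 5 of 9 were lower and none was higher. The shares of all genes tested were 24.6% lower and 21.8% higher. Oasl1 was at 8.56 ± 0.571 CPM in FOXP3-high and 54.3 ± 5.54 CPM in FOXP3-low (log2 fold change -2.66 ± 0.11, edgeR adjusted p = 2.31e-07), Oasl2 at 27.2 ± 2.87 and 108.6 ± 8.83 CPM, Oas2 at 9.94 ± 0.420 and 22.0 ± 2.23 CPM, and Oas1g at 2.60 ± 0.704 and 8.43 ± 1.30 CPM in the same order of groups. With T cell identity scaling 7 of the 9 were lower. The macrophage, neutrophil and dendritic cell markers were lower in FOXP3-high as well, and their part in these values was not tested.

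**Figure D5:**
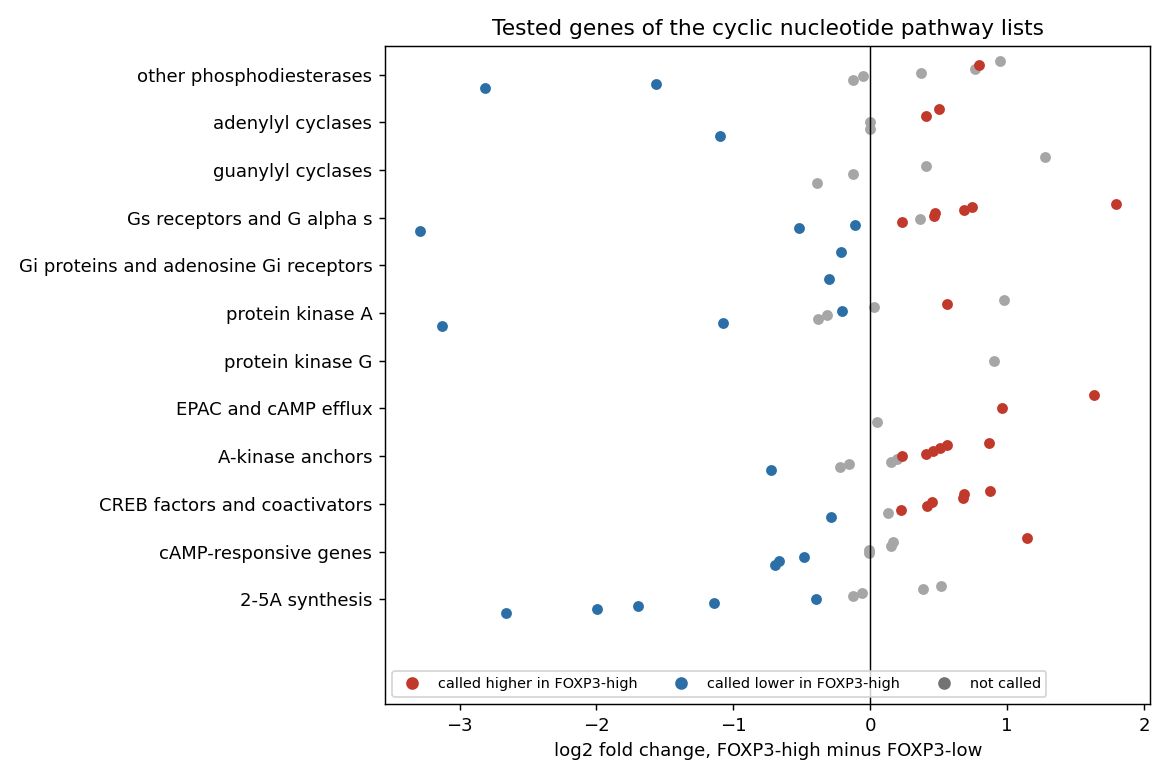
Log2 fold change (FOXP3-high minus FOXP3-low) of every tested gene of the 12 pathway lists, 1 point per gene, in red where called higher in FOXP3-high, blue where called lower and grey where not called. Across the lists 25 genes were called higher and 21 lower (11 and 32 with T cell identity scaling), counts that are not read as a result about the lists together. Of 8 tested CREB factors and coactivators 6 were higher and 1 lower, and of 11 A-kinase anchors 6 and 1. Of 9 genes of the 2-5A list 5 were lower and none higher. All genes tested gave 3459 higher (21.8%) and 3898 lower (24.6%), and 1093 and 7160 with T cell identity scaling.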

How the data were processed

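RNA was measured in 7 bulk libraries. Titles gave each library's group and replicate number. The authors deposited whole-number counts per gene, without normalization, with gene coordinates and lengths. The submitters' processing notes name fastp 0.23.4, STAR 2.5.3a, featureCounts, and the builds GRCh38 and GRCm39, and coordinates are given here as GRCm39. Per the labels' protocols, libraries were stranded mRNA libraries from TRIzol-extracted RNA. The sources used here do not give the strand setting, the treatment of shared reads or any collapsing of duplicates, so overlapping genes are uncertain.

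The analysis used edgeR 4.0.16 in R 4.3.3: filterByExpr (minimum count 10, total 15), TMM, and the quasi-likelihood test of FOXP3-high against FOXP3-low over all genes, without a block. A standard error is the size of the log2 fold change over the root of its F statistic. A count is worth 0.0701 to 0.111 CPM. Replicates differed beyond counting noise in every pair (chi-square per gene 3.98 to 12.2), so none was treated as a copy. The test step was run on simulated data in which few genes changed, unlike here. That run therefore does not show how well the scaling and the test hold in these data.

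The 10 genes, the 12 pathway lists and the 12 marker lists (215 entries, 214 found; Akap2 was not) were chosen with earlier results of these data known. Besides the 10 genes, the text names Foxp3, overlapping genes with at least 10% as many counts, up to 4 called genes per pathway list with the smallest adjusted p (or the 2 most abundant), and the 5 genes most like Pde2a and Pde3b among those with at least 5 CPM, predicted genes and receptor segments left out. Abcc4, Gnal, Ptger2, Ptger4 and Gnas are named beyond this rule, to qualify the counts of their lists. Alternatives were other normalizations, filters, DESeq2 1.42.0, limma-voom (limma 3.58.1), left-out libraries and a replicate block.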

Additional observations from a re-analysis of the deposited data

Results flagged for a closer look

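Pde5a in FOXP3-low replicate 3, at 3.50 CPM, stood apart from the other FOXP3-low libraries at 1.22 to 1.51 CPM. The gap to its nearest neighbour was 0.875 of the group's range, above the 95% critical value of Dixon's test for 4 samples. Of the 10 genes tested in this way in FOXP3-low it was the only one so far apart, and chance alone sets about 1 group in 20 apart. FOXP3-high, with 3 libraries, was not tested.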

How the results depend on the processing

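Pde2a, Pde4b and Pde4d kept their direction and their call under every alternative run, with log2 fold changes of 1.71 to 2.33, -0.95 to -0.50 and 0.49 to 0.94. Scaling to the 17 T cell identity genes moved the median of all genes by -0.38 and changed most: all genes gave 1093 higher and 7160 lower, the 10 genes 2 higher and 2 lower, and the pathway genes 11 higher and 32 lower. Under it Pde3b (0.21), Pde1b (0.10) and Pde7a (0.0835) lost their calls, Pde12 (-0.40) gained one as lower, and Pde8a (-0.28) and Pde4a (-0.36) changed sign without passing. Relative to the median of all genes under this scaling, the values were 0.58 for Pde3b, 0.47 for Pde1b, 0.45 for Pde7a, 0.0935 for Pde8a, 0.0132 for Pde4a and -0.0295 for Pde12.

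Pde5a passed without both libraries numbered 3 (1.11, edgeR adjusted p = 0.038) and without FOXP3-low replicate 3, and its values over left-out libraries ran from 0.57 to 1.19. Pde4a and Pde12, near 0, changed sign in several settings: Pde4a was -0.0246 with no filter, -0.10 without both libraries numbered 3 and -0.0387 with the replicate block, and Pde12 was 0.0314 with upper quartile factors and 0.0507 with total counts. With single libraries left out Pde4a ran from -0.0786 to 0.14 and Pde12 from -0.0624 to 0.0222. The cause of these shifts was not tested. With at least 50 counts in 3 libraries Pde5a had no value.

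Whether replicate numbers pair the samples was not settled: deviations from the group means of equally numbered libraries correlated at -0.10, 0.10 and 0.53. FOXP3-low replicates 2 and 3 correlated best with their own number, and FOXP3-low replicate 1 with FOXP3-high replicate 2. With the replicate number as a block 3294 genes were higher and 3735 lower, and 5 and 1 of the 10. Among the 10 genes, depth limits Pde5a and Pde4a, which rest on 15 to 63 counts per library.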

Other observations

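Pde3a, the paralog of Pde3b known from heart, platelets and vascular smooth muscle, was named after its values were seen. It was at 0.602, 0.334 and 8.68 CPM in FOXP3-high replicates 1 to 3, against 0.406, 1.55, 7.64 and 0.167 CPM in FOXP3-low replicates 1 to 4. The library numbered 3 was the highest of its group in both. The fibroblast and pericyte markers summed to 493 and 638 CPM in these 2 libraries, against 26.3 to 209 CPM in the other FOXP3-high and 54.7 to 96.4 CPM in the other FOXP3-low libraries. Their part in the Pde3a values was not tested. Pde3b was at 68.6 CPM in FOXP3-high replicate 3, the lowest of its group, and at 52.9 CPM in FOXP3-low replicate 3.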
